A study of Mus musculus with 4 samples.

Results

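The genes described here are 10 genes of incretin receptor and cAMP signaling: Glp1r, Gipr, Gcgr, Adcy5, Rapgef3, Rapgef4, Prkar1b, Prkaca, Pde3b and Pde4c. They are 10 of the 15470 genes, and their 16 probes are 16 of the 35087 probes, that could be tested on the arrays. Members were the gene probes whose RefSeq transcript maps to one of these symbols, and the symbols were chosen by their pathway with the MOTS-c and scrambled values of these arrays already known. Glp1r, Gipr, Rapgef3, Prkar1b and Pde4c are also among genes that the study itself selected on the fold change between these arrays. The difference between MOTS-c and scrambled is therefore given as a description for the members, without a test.

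MOTS-c is a short peptide encoded in the mitochondrial genome, and the study asked how it acts on aged pancreatic islet cells. Islets of male, 60-week-old C57BL/6 mice were digested out with collagenase, handpicked and dispersed into single cells, which were cultured for 24 h with 10 μM MOTS-c or 10 μM scrambled peptide. RNA of each sample was hybridized to a one-color Agilent array, with 2 scrambled arrays (replicates 1 and 2) and 2 MOTS-c arrays (replicates 2 and 3). The cells came from 4 littermates for which the labels name no transgene, and no untreated sample is part of the design. The labels do not say whether each array holds the cells of 1 mouse. The p-values measure the spread between the 4 samples. All values below are log2 intensities after quantile normalization, a step that gives every array the same distribution of intensities, and a difference is MOTS-c minus scrambled.

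Between 61.6% and 65.0% of gene spots were well above background on an array. The arrays of a group differed from each other by a median absolute log2 difference of 0.16 for scrambled and 0.19 for MOTS-c over all probes. MOTS-c replicate 3 stood apart, with a median absolute log2 difference of 0.24 from scrambled replicate 2, against 0.16 between MOTS-c replicate 2 and the same scrambled array. Insulin, glucagon and somatostatin probes (Ins1, Gcg and Sst) gave signal well above background on every array, as the label of islet cells implies. Against the label of male mice, the Xist probe was well above background on all 4 arrays, and the 7 probes of 4 Y-linked genes were above it on 0 of 28 spots.

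Incretins are gut hormones that strengthen glucose-stimulated insulin secretion. GLP-1 and GIP bind Gs-coupled receptors on the beta cell, the receptors switch on adenylyl cyclases, and cAMP then acts through protein kinase A and through the exchange factors Epac1 and Epac2, which load the small GTPase Rap. Phosphodiesterases end the signal by hydrolyzing cAMP, and protein kinase A can carry it to the nucleus, where the factor CREB binds the cAMP response element.

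To show the sequence beside the values, the 250 bases before an annotated start are printed for Glp1r and Rapgef3, whose probes were lower with MOTS-c, for Prkar1b, lower on both its probes, and for Prkaca, another kinase subunit, which differed by less. They are RefSeq sequences of GRCm38.p6, read 5′ to 3′ on the gene's strand, and capitals mark the short form of the cAMP response element, TGACG or its reverse complement CGTCA. The window of Glp1r is chr17:30901617-30901866 (plus strand), that of Rapgef3 chr15:97767667-97767916 (minus strand), that of Prkar1b chr5:139150002-139150251 (minus strand) and that of Prkaca chr8:83972728-83972977 (plus strand).
Glp1r: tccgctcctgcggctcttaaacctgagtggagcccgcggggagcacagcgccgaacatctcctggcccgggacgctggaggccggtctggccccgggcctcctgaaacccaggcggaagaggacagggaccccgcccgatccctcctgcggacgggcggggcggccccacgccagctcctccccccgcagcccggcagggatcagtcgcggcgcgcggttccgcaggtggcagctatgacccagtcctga
Rapgef3: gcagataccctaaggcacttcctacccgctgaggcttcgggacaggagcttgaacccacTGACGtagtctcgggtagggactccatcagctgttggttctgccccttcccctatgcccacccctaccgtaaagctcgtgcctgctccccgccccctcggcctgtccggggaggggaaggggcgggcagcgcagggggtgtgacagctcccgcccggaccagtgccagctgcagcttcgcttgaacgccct
Prkar1b: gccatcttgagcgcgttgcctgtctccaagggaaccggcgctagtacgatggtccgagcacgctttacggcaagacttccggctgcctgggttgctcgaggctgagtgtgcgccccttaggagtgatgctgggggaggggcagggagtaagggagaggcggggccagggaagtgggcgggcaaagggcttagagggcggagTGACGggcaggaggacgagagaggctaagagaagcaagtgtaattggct
Prkaca: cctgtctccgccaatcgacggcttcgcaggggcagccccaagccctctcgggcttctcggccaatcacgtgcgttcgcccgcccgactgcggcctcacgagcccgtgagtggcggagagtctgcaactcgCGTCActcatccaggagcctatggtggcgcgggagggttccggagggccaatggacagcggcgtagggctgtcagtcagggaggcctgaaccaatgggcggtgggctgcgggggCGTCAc
Counted back from the start, this short form began at position -191 in Rapgef3, at position -49 in Prkar1b, and at positions -120 and -6 in Prkaca. RefSeq windows of 300 bases, 250 before and 50 after a start, were found for 8 members (13 windows, of which 5 belong to Prkar1b and 2 to Prkaca), and not for Gipr and Pde3b. The short form, searched on both strands, lay in 3 of the 13 windows, those printed for Rapgef3, Prkar1b and Prkaca, against 20.8% of all 32851 windows. The full element TGACGTCA, which contains the short form, lay in 0 of the 13 windows, against 1.79% of all windows. For Prkar1b and Prkaca, the printed window is the only window of the gene that holds the short form. A match of letters is a description and not a binding site.

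On all 4 arrays, each of the 16 member probes was well above background. With MOTS-c, 12 were lower and 4 higher, with a median log2 difference of -0.22 over the 16 probes, beside 0.01 over all probes tested. The MOTS-c values were both under the lower scrambled value for 9 member probes, where 18.6% of all probes did the same, and both over the higher one for 1 member probe (Adcy5), where 19.4% of all probes did. The groups overlapped for the other 6. A difference of at least 1.5-fold was measured for 5 member probes, all lower with MOTS-c: those of Glp1r, Gipr and Rapgef3 and one each of Prkar1b and Pde4c. Over all probes 3.43% were that much lower and 1.81% that much higher. Since the members were chosen with this contrast known, nothing is read from these shares.

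**Figure D1:**
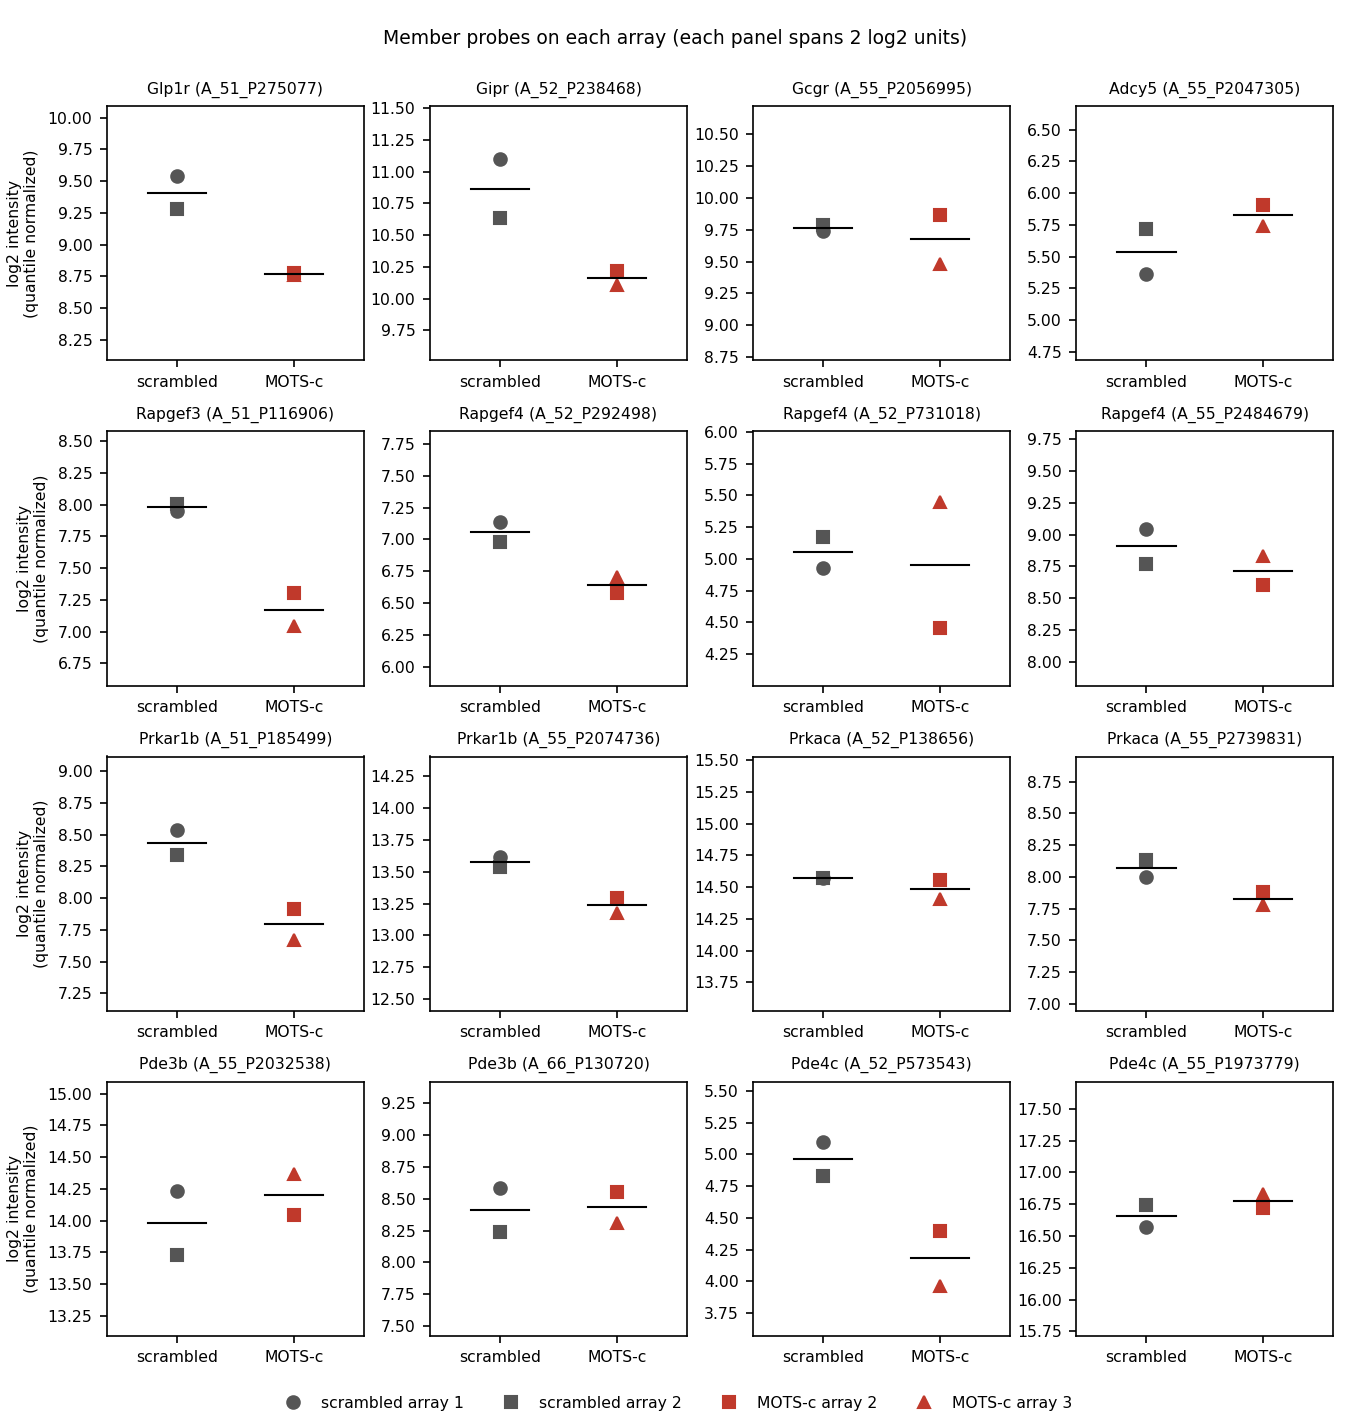
Log2 intensity (quantile normalized) of the 16 member probes on each array, scrambled in grey and MOTS-c in red, with the group mean as a black line; every panel spans the same range of log2 units. For Glp1r, Gipr and Rapgef3 the red symbols lie under the grey ones, while for Gcgr, Pde3b and 2 of the 3 Rapgef4 probes the groups overlap.

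The incretin receptors were both lower with MOTS-c, and the glucagon receptor was not separated. Glp1r, the GLP-1 receptor, read 9.54 and 9.28 with scrambled peptide and 8.78 and 8.76 with MOTS-c. The MOTS-c arrays nearly coincided and were lower than either scrambled array, a log2 difference of -0.64 (SE 0.14, 1.56-fold lower) that ranged from -0.77 to -0.51 when any 1 array was left out. Gipr, the receptor for GIP, read 11.10 and 10.64 with scrambled peptide and 10.22 and 10.11 with MOTS-c. Its scrambled arrays were 0.46 apart and both above the MOTS-c arrays, with a log2 difference of -0.70 (SE 0.19, 1.63-fold lower), and -0.47 without scrambled replicate 1. Gcgr, the receptor for glucagon on beta cells and liver, read 9.74 and 9.79 with scrambled peptide and 9.87 and 9.48 with MOTS-c. The scrambled values lay between the MOTS-c values, and the log2 difference of -0.09 (SE 0.17) turned to 0.10 without MOTS-c replicate 3. Each of these receptors had 1 probe, so no second probe bears on their values.

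In a bulk sample, fewer cells of a type and less RNA per cell cannot be told apart, so levels of islet cell markers are set beside the receptor values. Of 8 beta cell markers 7 could be tested, with a median log2 difference of -0.04. The groups did not overlap for 3 that were lower and 3 that were higher with MOTS-c, beside 22.7% and 19.8% of all genes. The median was the value of Ins1, which is among the 3 lower and read 18.13 on both scrambled arrays. The insulin probes were so bright that quantile normalization gave arrays nearly the same values. This limits any difference that they can show. The mean log2 intensity of the beta list was 13.97 and 14.01 with scrambled peptide and 13.75 and 13.84 with MOTS-c. That mean includes Slc2a2, which differed most, and the other tested beta cell markers differed by -0.28 to 0.16. Slc2a2, the glucose transporter of beta cells, read 5.23 and 5.26 against 3.81 and 4.02, a log2 difference of -1.33 (SE 0.13), on a probe well above background on 3 of the 4 arrays. Of the alpha cell markers, the transcription factor Irx2 read 4.60 and 4.26 with scrambled peptide and 5.12 and 5.10 with MOTS-c, a log2 difference of 0.68 (SE 0.16) without overlap. The glucagon gene itself is described with the ligand genes. The 3 delta cell markers had a median of -0.25. On both MOTS-c arrays 0 of these 3 were lower and 1 was higher, beside 22.7% and 19.8% of all genes. The 1 marker of PP cells differed by 0.32 with overlap. Few markers of other cells could be tested: 2 of 7 acinar, 2 of 5 ductal, 3 of 5 endothelial, 2 of 6 mesenchymal, 2 of 4 macrophage and 2 of 2 T cell markers, 1 of 2 Schwann cell markers and 0 of 2 B cell markers. Among them Pdgfra, a mesenchymal receptor, was lower, with a log2 difference of -1.05 (SE 0.33). The part of cell composition in the member values was not tested.

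Adcy5, an adenylyl cyclase that forms cAMP, was the member with higher values on both MOTS-c arrays. It read 5.36 and 5.72 with scrambled peptide and 5.91 and 5.74 with MOTS-c. The nearest arrays of the groups lay 0.03 apart, and the log2 difference of 0.29 (SE 0.17) was smaller than the 0.36 between the scrambled arrays. The spot was 2.00 to 2.69 times its local background, and with the normexp background correction the difference was 0.15. Normexp subtracts the local background, models what background remains, and here adds an offset of 50. Such an offset by itself makes the log2 differences of dim spots smaller.

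The Epac genes were lower to different degrees. Rapgef3, which encodes Epac1, read 7.95 and 8.01 with scrambled peptide and 7.30 and 7.04 with MOTS-c. Its scrambled arrays lay close together and well above the MOTS-c arrays, and its log2 difference of -0.81 (SE 0.15, 1.75-fold lower) was the most negative of the 16 probes. It ranged from -0.94 to -0.68 without any 1 array, and was -0.55 with normexp. Rapgef4, which encodes Epac2, the more prominent Epac of beta cells, had 3 probes against different RefSeq transcripts of the gene. The first (A_52_P292498) read 7.14 and 6.98 with scrambled peptide and 6.58 and 6.70 with MOTS-c, a log2 difference of -0.42 (SE 0.13) without overlap. The brightest (A_55_P2484679) read 9.05 and 8.77 against 8.60 and 8.83, where one MOTS-c array lay above one scrambled array, and differed by -0.19 (SE 0.17). The last (A_52_P731018) read 4.93 and 5.17 against 4.46 and 5.45, with both scrambled values between the MOTS-c values. Its MOTS-c arrays were 0.99 apart, and its difference of -0.10 (SE 0.35) went from -0.59 without MOTS-c replicate 3 to 0.40 without MOTS-c replicate 2. All 3 Rapgef4 probes were thus below 0 in the mean, and 1 of them was separated between the groups.

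Protein kinase A is a holoenzyme of regulatory subunits that hold catalytic subunits inactive until cAMP binds. Prkar1b, the regulatory subunit RIβ, had 2 probes that were both lower with MOTS-c. The probe A_51_P185499 read 8.53 and 8.34 with scrambled peptide and 7.91 and 7.67 with MOTS-c, and the brighter A_55_P2074736 read 13.62 and 13.54 against 13.30 and 13.18. Neither probe overlapped between groups, but the sizes differed, -0.64 (SE 0.15, 1.56-fold lower) on the first and -0.34 (SE 0.13, 1.27-fold lower) on the brighter one. Prkaca, the catalytic subunit Cα, was also lower on both of its probes, by less. The brighter probe (A_52_P138656) read 14.57 and 14.57 with scrambled peptide and 14.56 and 14.41 with MOTS-c, and the other (A_55_P2739831) read 8.00 and 8.14 against 7.88 and 7.78. Their log2 differences were -0.09 (SE 0.13) and -0.24 (SE 0.13). The first was below the 0.15 by which its own MOTS-c arrays differed, although its groups did not overlap.

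The phosphodiesterases gave no shared direction. Pde3b, a cGMP-inhibited phosphodiesterase that restrains insulin secretion, read 14.23 and 13.73 with scrambled peptide and 14.05 and 14.37 with MOTS-c with its brighter probe (A_55_P2032538), and 8.58 and 8.24 against 8.55 and 8.31 with the other (A_66_P130720). Both probes overlapped between groups, with log2 differences of 0.22 (SE 0.23) and 0.02 (SE 0.18). Pde4c, a cAMP-specific phosphodiesterase, was the member whose probes disagreed. Its dim probe (A_52_P573543) read 5.10 and 4.83 with scrambled peptide and 4.40 and 3.96 with MOTS-c, a log2 difference of -0.78 (SE 0.20, 1.72-fold lower). Its bright probe (A_55_P1973779) read 16.57 and 16.74 against 16.72 and 16.83, with overlap, and differed by 0.11 (SE 0.14). The dim spot was 1.98 to 2.68 times its local background and the bright one at least 2387 times. With normexp, which here also used the median signals and an offset of 50, the dim probe differed by -0.17.

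Of the 5 members with several probes, 4 had probes of the same sign, Rapgef4, Prkar1b and Prkaca lower and Pde3b higher, and Pde4c did not. When the brightest probe stood for each gene, 7 members were lower and 3 higher, and the median log2 difference over the 10 members was -0.14, beside 0.00 over all 15470 genes. Averaged over a gene's probes, the members' median was -0.28. Groups did not overlap for 5 members that were lower and 1 that was higher by the brightest probe, where 22.7% and 19.8% of all genes did so.

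**Figure D2:**
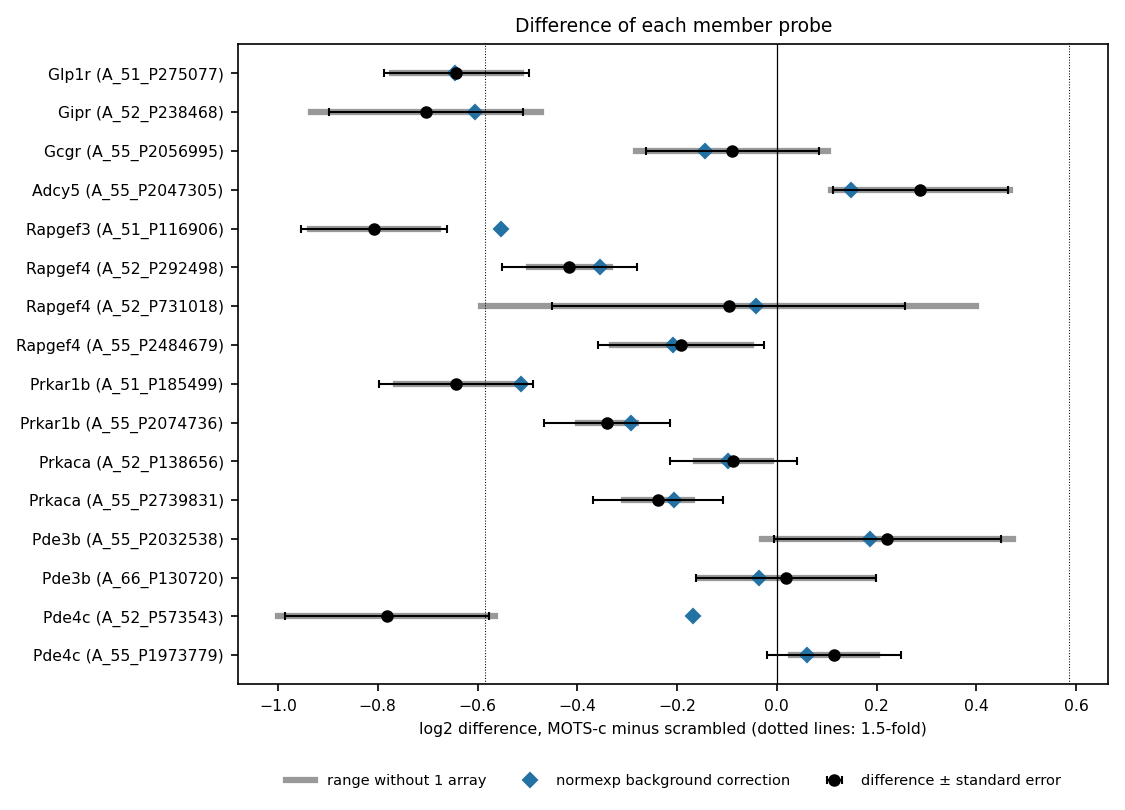
Log2 difference (MOTS-c minus scrambled) of each member probe, as a black point with its standard error from limma. The grey bar spans the values without any 1 array, the blue diamond is the value with normexp background correction, and dotted lines mark 1.5-fold; Rapgef3 and the dim Pde4c probe move most with normexp, to -0.55 and -0.17.

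Set against the arrays' own spread, the members fell into separated and unseparated probes. For 8 of the 16 probes the difference between groups was smaller than the larger of the differences within a group, and for 4 probes the sign turned when 1 array was left out. Glp1r, Gipr, Rapgef3, the dim Pde4c probe and both Prkar1b probes were on the other side, as were the first Rapgef4 probe and the dimmer Prkaca probe, with a difference between groups above that within either group. The same counts are not given over all probes. Since the members were chosen with this contrast known, nothing is read from these counts. By limma with Benjamini-Hochberg adjustment over all 35087 probes of the array, 0 had an adjusted p under 0.05, and the smallest adjusted p of any probe was 0.474. At an unadjusted p under 0.05 limma called 2755 probes and the methods' t-test 2312, and after adjustment the t-test called 1.

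**Figure D3:**
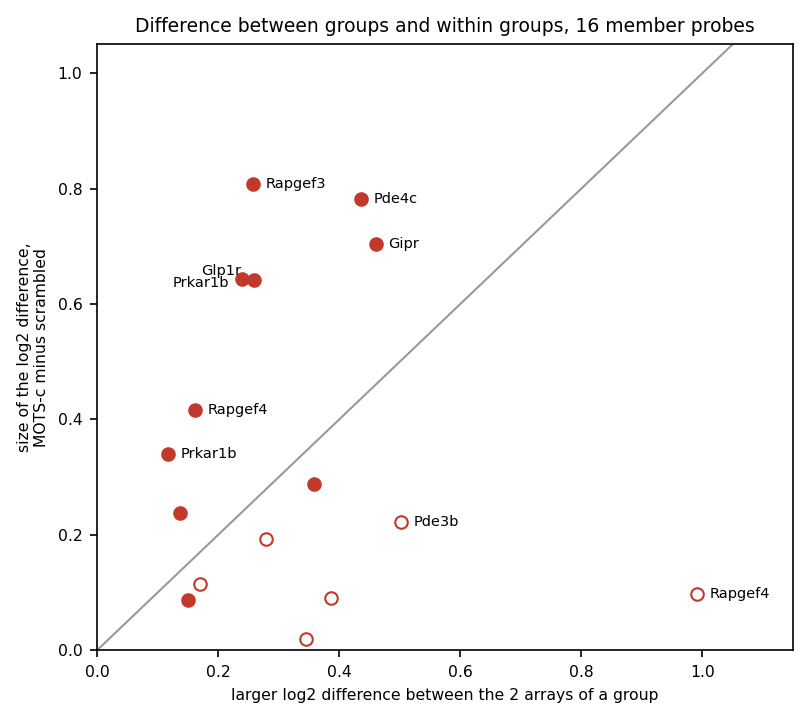
Size of the log2 difference between MOTS-c and scrambled (vertical axis) against the larger log2 difference within a group (horizontal axis), one point per member probe, filled where the groups do not overlap. Probes above the grey diagonal, among them those of Rapgef3, Gipr and Glp1r, differ more between groups than within them; the Rapgef4 probe at 0.99 differs most within a group.

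The question for the rest of the pathway was whether the genes around the members moved with them. Of 106 other pathway genes, 89 could be tested, each by its brightest probe. Their median log2 difference was -0.03 and their range -0.54 to 0.69. At an unadjusted p under 0.05 4 of the 89 were lower (4.49%) and 3 higher (3.37%), close to the 5.79% and 2.82% of all genes. With each array shifted to its 75th percentile in place of quantile normalization, 1 was lower and 3 higher. By limma 0 of the 89 had an adjusted p under 0.05, as did 0% of all genes, and the t-test left 0 as well. Groups did not overlap for 23 that were lower and 19 that were higher, beside 22.7% and 19.8% of all genes.

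Among G proteins and other receptors of the glucagon and secretin class, single genes differed. Gnai1, the inhibitory subunit Gαi1 that opposes Gs, read 10.13 and 10.11 with scrambled peptide and 10.72 and 10.91 with MOTS-c. By the brightest probe of each gene, it was the only tested pathway gene with a difference of at least 1.5-fold. Its log2 difference was 0.69 (SE 0.13, 1.62-fold higher, limma adjusted p = 0.474), and the 9 G protein genes had a median of -0.06. Crhr1, the receptor for corticotropin-releasing hormone, was lower, with a difference of -0.34 (SE 0.12, limma adjusted p = 0.614) and by -0.22 on its other probe. The 7 tested receptors of its class had a median of -0.23, and on both MOTS-c arrays 3 of the 7 were lower and 1 higher, beside 22.7% and 19.8% of all genes.

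Of the 7 other adenylyl cyclases tested, none passed an unadjusted p under 0.05 by limma, with a median of -0.19. Adcy1, a calcium-stimulated cyclase, read 11.62 and 11.32 with scrambled peptide and 11.15 and 10.93 with MOTS-c, a log2 difference of -0.44 (SE 0.17), with -0.38 on its other probe. Adcy6 differed by -0.26 (SE 0.13), and by -0.40 on its other probe. Adcy1 and Adcy6 thus read in the opposite direction to Adcy5, on 2 probes each. The 7 other subunits and inhibitors of protein kinase A had a median of 0.03, which turned to -0.08 without scrambled replicate 2. Of these, 0 were lower and 2 higher on both MOTS-c arrays, beside 22.7% and 19.8% of all genes. Prkar1a (-0.13, SE 0.15) and Prkacb (-0.05, SE 0.12), the regulatory subunit RIα and the catalytic subunit Cβ, each overlapped between groups. The 11 tested anchoring proteins, which hold the kinase near its substrates, had a median of 0.08.

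Of 10 tested relatives and partners of Epac, 1 was lower at an unadjusted p under 0.05, beside 5.79% of all genes. Rapgef5, another exchange factor for Rap, was lower, with a difference of -0.42 (SE 0.15, limma adjusted p = 0.604), with -0.07 on its other probe, and the list's median was -0.01. Of 10 other cAMP phosphodiesterases tested, Pde1b, which calcium and calmodulin activate, was lower, with a difference of -0.42 (SE 0.14, limma adjusted p = 0.591), and the median was -0.09. Among 7 receptor kinases and arrestins, which switch receptors off, Grk3 was lower, with a difference of -0.36 (SE 0.12, limma adjusted p = 0.595), with a median of -0.15.

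The ligand genes were not separated in one direction. Gcg, the precursor of glucagon and GLP-1, read 15.56 and 15.61 with scrambled peptide and 15.66 and 15.72 with MOTS-c, a log2 difference of 0.11 (SE 0.12). Gip, the precursor of GIP, differed by -0.27 (SE 0.23), and by -0.02 without MOTS-c replicate 3. The 5 ligand and processing genes tested had a median of -0.09.

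At the end of the pathway, 2 of 8 tested genes known as CREB targets were higher at an unadjusted p under 0.05, beside 2.82% of all genes, and none was lower. Nr4a1, an immediate early nuclear receptor, read 10.53 and 10.83 with scrambled peptide and 11.23 and 11.15 with MOTS-c, a log2 difference of 0.51 (SE 0.16, limma adjusted p = 0.563). Its relative Nr4a2 was higher by 0.39 (SE 0.14, limma adjusted p = 0.610), and by 0.50 on its other probe. Nr4a3, another relative, differed by -0.03 (SE 0.18) and overlapped between groups. The median of the 8 was 0.04, and -0.14 without MOTS-c replicate 2. Of the 8 CREB factors and coactivators, with a median of 0.10, none passed an unadjusted p under 0.05. Creb1 (0.23, SE 0.28) and Crem (0.37, SE 0.32) overlapped between groups.

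**Figure D4:**
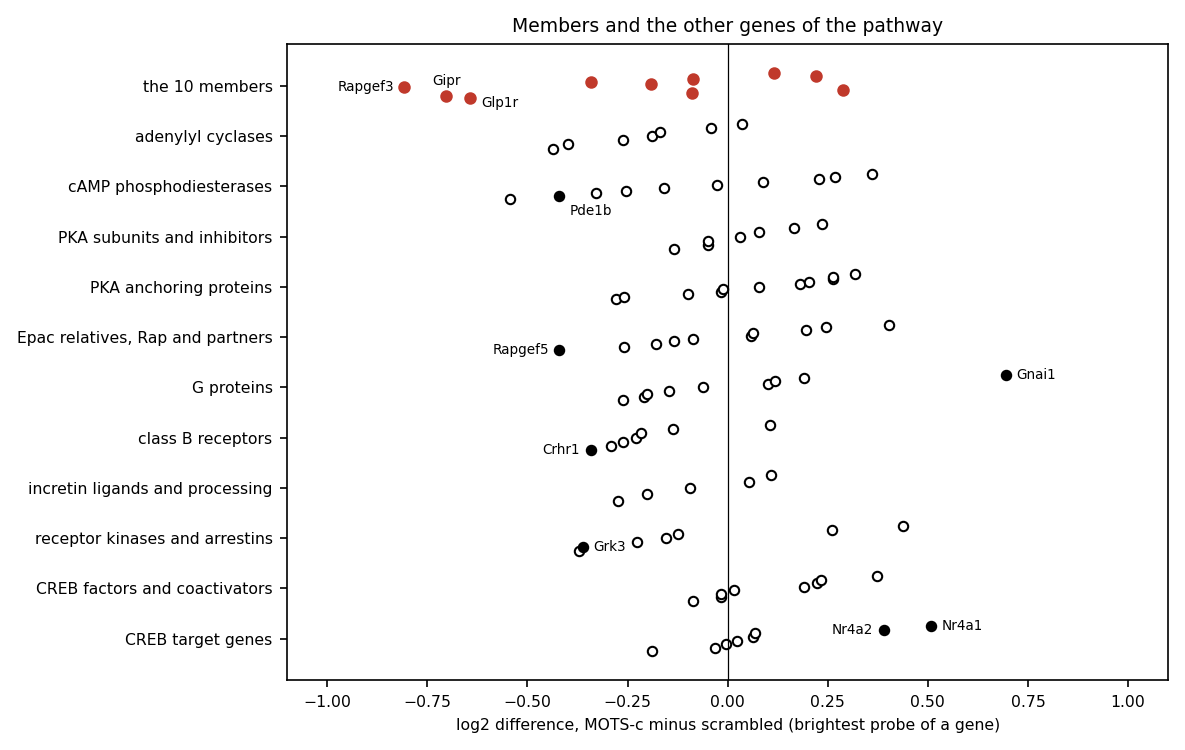
Log2 difference (MOTS-c minus scrambled) of the 10 members (red) and of 89 other pathway genes by family, each by its brightest probe; filled black points are at an unadjusted p under 0.05 by limma and are named. Rapgef3, Gipr and Glp1r lie to the left of every other pathway gene, whose lowest value is -0.54, and Gnai1 at 0.69 lies farthest to the right.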

How the data were processed

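Per the labels, total RNA was amplified and labeled with Cy3, and each array was read by Agilent Feature Extraction. The deposited scanner files hold the authors' background-subtracted intensity per spot (the processed signal). A deposited table of the series holds the same intensity values rounded to about 3 digits, and was used as an alternative.

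Control spots and spots called outliers were left out, spots of a probe were averaged, and log2 intensities were quantile normalized. A probe was kept if 2 or more of the 4 arrays read it well above background (35087 probes), and fitted with limma 3.58.1 (R 4.3.3; lmFit and eBayes, 2 residual degrees of freedom) with Benjamini-Hochberg adjustment. The fit was tested on simulated data. No gene spot was saturated, and the number of arrays limits the precision: an exact permutation test of 2 against 2 cannot go below p = 0.333.

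Probes were named through RefSeq transcripts of GRCm38.p6, which gave a symbol for 32994 of 56605 gene probes. The files used here give no probe sequence. The brightest probe stood for a gene where 1 value was needed. The text names every member probe, pathway genes at an unadjusted p under 0.05 (at most 3 a family, otherwise at most 2 defining genes by value), and cell type markers whose groups did not overlap at 1.5-fold or more; Ins1 and Sst were named for the check of the label, and some alpha cell markers are not reported here. The members and lists were chosen with earlier results of these data known. Alternatives were the 75th percentile shift, normexp (offset 50) on the median signals, the rounded table, a stricter and no filter on dim probes, a trend in the limma prior, the t-test of the study's methods, the mean over a gene's probes, and leaving out each array.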

Additional observations from a re-analysis of the deposited data

How the results depend on the processing

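The members' median log2 difference stayed below 0 under every alternative run. By the brightest probe it lay between -0.22 (without MOTS-c replicate 2) and -0.10 (without scrambled replicate 1). By the mean over a gene's probes it was -0.28. Of 144 single-probe values, 137 kept the sign, and the 7 values of the other sign came from probes whose groups overlap. The number of pathway genes at an unadjusted p under 0.05, 7 as reported, was 4 with the 75th percentile shift, 12 with a trend, 16 without a filter on dim probes, 17 with normexp, 11 with the t-test, and 1 (without scrambled replicate 1) to 12 (without MOTS-c replicate 2) when an array was left out, with 2 without MOTS-c replicate 3 and 3 without scrambled replicate 2. The number of probes at an unadjusted p under 0.05 and 1.5-fold, 1239 as reported, was 406 with normexp, 457 with the t-test, and 1391 to 3299 when an array was left out, the highest without MOTS-c replicate 2. Over all 15470 genes, the number at an unadjusted p under 0.05 was 1332 by limma as reported, 1789 with a trend and 1217 with the t-test. Where 1 array was left in a group, it was assumed to vary like the other group. The cause of the changes in these counts was not tested. No paired analysis was possible because the groups share a single replicate number. Low signal over background limits the dim probes of Adcy5, Pde4c and Rapgef4.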
